A study of Caenorhabditis elegans with 6 samples.

Results

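The C-type lectin genes of Caenorhabditis elegans, named clec, encode proteins with a C-type lectin-like domain. They were chosen by symbol: every row of the count table whose sequence name maps to clec followed by a number in the RefSeq gene table of assembly WBcel235. This gave 124 genes among 14605 worm gene rows. RefSeq lists 264 clec symbols, and the other 140 were not analysed here. The libraries came from first-stage larvae, with 3 replicates of intestinal cells and 3 of cells from outside the intestine, described by the submitters as dividing at that stage. Pools of 500 cells, titled 4N for their DNA content, gave 1 library each, in an adapted form of CEL-seq, which counts the 3′ ends of transcripts. Both groups carried the same transgene, ccyIS27, in which elt-2p, the promoter of the intestinal gene elt-2, drives mCherry-PH-P2A-H2B-mCherry, a red membrane marker and a red histone. The labels name no cell type in the non-intestinal group, so a level in it is an average over cells that may or may not express the gene. In such bulk pools fewer expressing cells and less RNA per cell cannot be told apart.

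A C-type lectin-like domain is a compact protein fold that in vertebrates often binds sugars in a calcium-dependent way, as in the mannose-binding receptors of the innate immune system. In C. elegans the family is much expanded, and most of its members have no assigned ligand. The intestine is the tissue that meets swallowed bacteria, and RNA levels of many clec genes are known to change there when worms are exposed to pathogens.

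Worm gene counts per library ranged from 1222704 to 21040813, and in both groups replicate 3 was the shallowest. Levels are given in CPM, a gene's counts relative to the size of its library, with sizes scaled by TMM, a method that assumes most genes to be at equal levels across libraries. A count of 0 allows up to 3 counts, or from 0.136 CPM in non-intestinal replicate 2 to 2.40 CPM in intestinal replicate 3. Values of a group's libraries are always listed in the order of replicates 1, 2 and 3, with intestinal libraries first. Intestinal markers were tested for 13 of 14 listed genes, and 13 were called higher in intestinal cells, 5 of them having passed the filter by intestinal libraries alone. Their summed level was between 7412 and 8554 CPM in intestinal and between 60.1 and 211 CPM in non-intestinal libraries, where ftn-1 was at 0. Germline markers ran the other way, with a summed level between 162 and 388 CPM in intestinal and between 1346 and 1670 CPM in non-intestinal libraries, and nos-2 was at 0 in the intestinal ones. Pharyngeal muscle and gland markers summed to between 49.7 and 871 CPM in intestinal and between 997 and 1598 CPM in non-intestinal libraries, and glial markers to at most 3.41 and 20.1 CPM. Body muscle markers ranged from 910 to 3362 CPM in intestinal libraries and from 2010 to 5699 CPM in non-intestinal ones, so the groups overlapped. Neuronal markers summed to between 237 and 863 against between 336 and 525 CPM, epidermal markers to between 76.9 and 162 against between 367 and 597 CPM, and excretory cell markers to between 14.4 and 49 against between 64.6 and 245 CPM. Coelomocyte markers were at 4.26 to 13.6 against 4.78 to 5.5 CPM. The part of these other cell types in the results was not tested.

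The clec genes together took a far larger part of the intestinal libraries. Summed over the family there were 54086, 62375 and 2341 counts in intestinal cells against 1054, 4264 and 280 in the others. As a share of worm gene counts this was 0.319%, 0.296% and 0.191% against 0.0215%, 0.0214% and 0.0178%. The groups did not overlap. The summed level was 3321 ± 1331 against 171 ± 21 CPM (SD, n = 3 each), a ratio of 19.4. Under library totals alone the ratio was 13.3.

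Different members made up the sum in the 2 groups. In each intestinal library clec-83 was first and clec-50 second by counts, followed by clec-63 in replicates 1 and 2 and by clec-150 in replicate 3. These are 3′-end counts that were not divided by transcript length. The gene clec-83 held 48.6%, 37.4% and 31.9% of all clec counts in intestinal replicates 1, 2 and 3, and without it the intestinal sum was 1947 ± 580 CPM (SD, n = 3). In the non-intestinal libraries clec-1 came first each time. It was followed by clec-88 and clec-149 in replicate 1, by clec-87 and clec-88 in replicate 2, and by clec-90 and clec-87 in replicate 3.

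**Figure D1:**
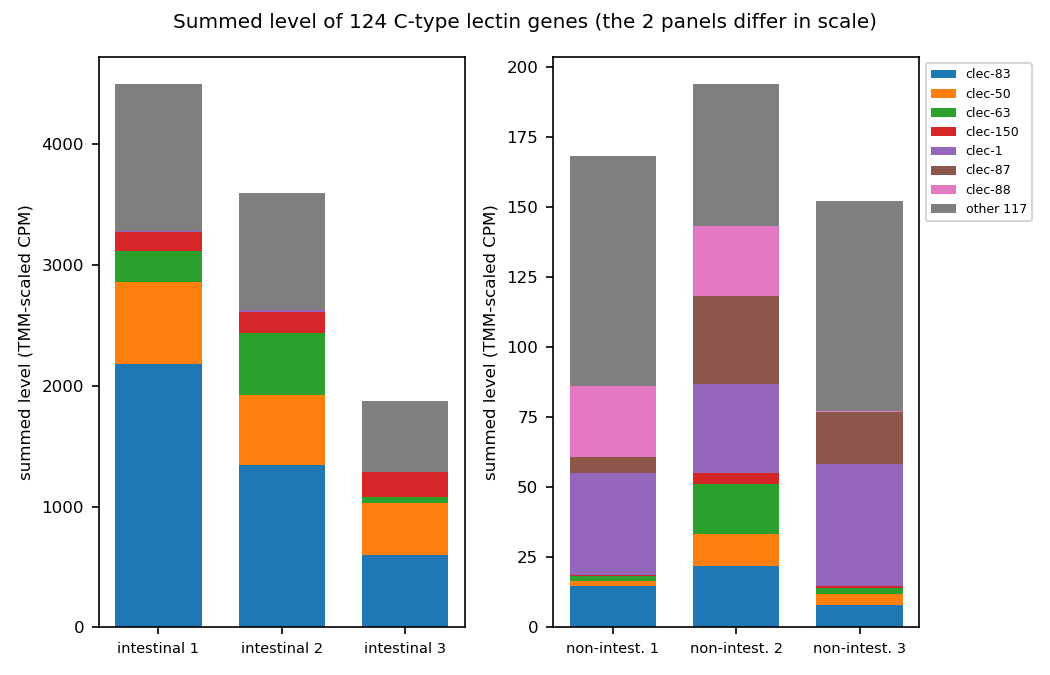
Summed TMM-scaled CPM of the 124 C-type lectin genes in each library, as stacked bars by gene, with intestinal libraries on the left and non-intestinal libraries on the right at a different scale. The intestinal bars reach from 1876 to 4495 CPM and are led by clec-83, whereas the non-intestinal bars reach from 152 to 194 CPM and are led by clec-1.

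More members were detected in intestinal cells. At least 1 count was seen for 78, 93 and 51 members, against 32, 57 and 37. With every library drawn down to 1222704 counts the numbers were 61, 67 and 51 against 23, 32 and 32, so the groups did not overlap at equal depth. Over all worm genes at that depth, 9000 ± 793 against 9518 ± 261 were detected (SD, n = 3 each).

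Many members were near the limit of detection. Of the 124, 20 had 3 or fewer counts in every library, or 16.1%, against 1367 of all 14605 gene rows, or 9.36%. None of the 124 was at 0 throughout, but the 140 clec symbols that were not analysed here are outside these counts. Of the 124, a further 52 had over 3 counts in some intestinal library with every non-intestinal library at 3 or fewer. The opposite pattern was seen in 9, and 43 exceeded 3 counts in both groups. These patterns were not counted over all gene rows, and the limit is on raw counts at unlike depths. The split is therefore not shown to be particular to the family. At equal depth 61 members were at 3 or fewer counts everywhere, and without intestinal replicate 2, the deepest library, 33 were.

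The comparison of intestinal with non-intestinal cells used the quasi-likelihood F test of edgeR, fitted over all genes that passed a filter on low counts, and a gene was called at a Benjamini-Hochberg adjusted p under 0.05. The filter kept 42 of the 124 clec genes and 9203 of all gene rows. Among these 42 members 29 were called higher in intestinal cells, or 69.0%, where 13.5% of all tested genes were called higher. Called lower was clec-87 alone, or 2.38%, where 7.64% of all tested genes were called lower. Of the 42, 15 passed the filter by their 3 intestinal libraries alone, with no non-intestinal library past its limit of 0.915 CPM by library totals. All 15 were called higher, as were 326 of 368 such genes in the whole table, so this part of the count follows from how those genes entered the test. In the same way clec-87 passed by its 3 non-intestinal libraries alone. The other 14 called genes passed the limit in at least 1 non-intestinal library. Fitted with the replicate number as a block, 27 members were called higher and 1 lower, where 15.1% and 9.86% of all tested genes were. By DESeq2 33 were called higher and 3 lower, where 18.3% and 15% of all tested genes were.

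The 29 higher genes had log2 fold changes, the log2 difference of intestinal from non-intestinal levels, from 4.63 for clec-56 to 10.53 for clec-5, with edgeR adjusted p between 0.00034 and 0.048. In 28 of them every intestinal library lay above every non-intestinal one, the exception being clec-72. Over the 42 tested members that was so for 31, or 73.8%, where 21.9% of all tested genes showed it. Of these 31, 15 are the genes that passed the filter by intestinal libraries alone, so neither this share nor the median over the tested members stands for the whole family. The median log2 fold change of the 42 was 5.83, against −0.34 for all tested genes. With the 12 members whose non-intestinal libraries all had 3 or fewer counts set against 3 counts in each, the median was 4.70. Scaling by library totals alone moved the median of all tested genes to −0.84 and that of the members to 5.46, a distance between them of 6.31 in place of 6.17. The same scaling moved the share of higher genes among all called genes from 63.9% to 44.3%. Under it clec-72, clec-41 and clec-56 lost their calls (edgeR adjusted p = 0.052, 0.051 and 0.060), and the 29 log2 fold changes stayed positive.

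**Figure D2:**
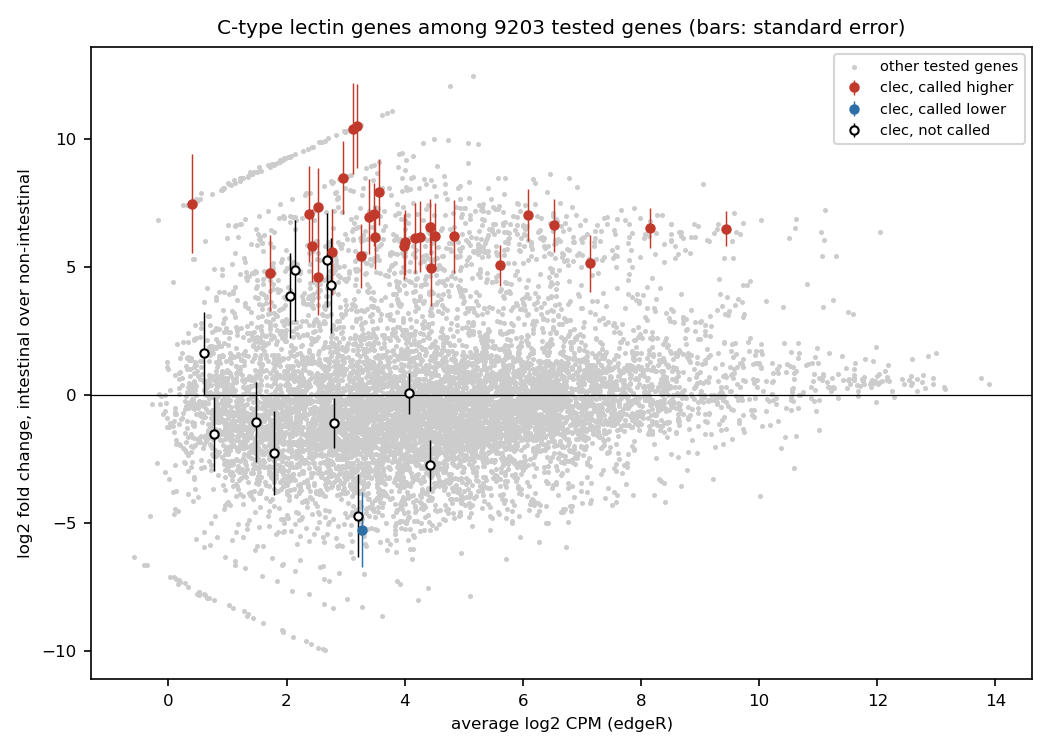
Log2 fold change (intestinal over non-intestinal) against average log2 CPM for all 9203 tested genes in grey, with the 42 tested C-type lectin genes as larger points with standard errors. The 29 red points lie from 4.63 to 10.53, the blue point is clec-87 and the open points are the 12 members that were not called.

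**Figure D3:**
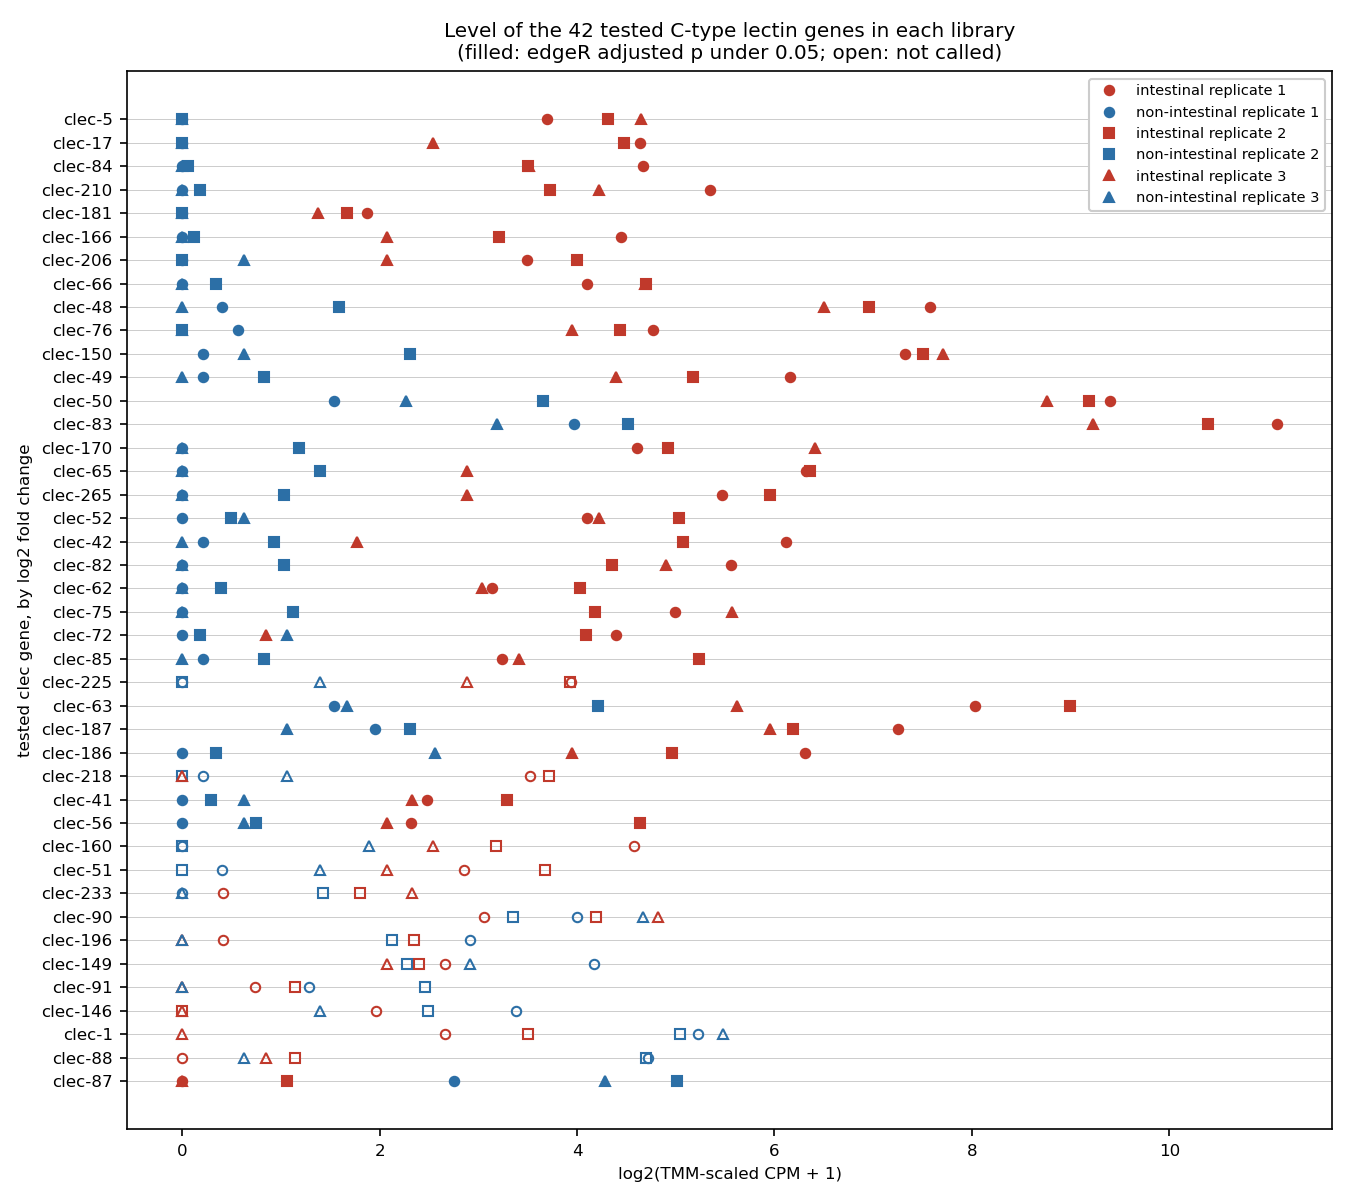
Level of each of the 42 tested C-type lectin genes in the 6 libraries as log2 of CPM plus 1, ordered by log2 fold change, with red for intestinal and blue for non-intestinal libraries and 1 marker shape per replicate. Filled symbols are called genes, and only in clec-72 among the higher ones does an intestinal library, replicate 3, fall below a non-intestinal one.

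A list of 18 clec genes linked to bacterial infection in this worm was examined, of which 16 were in the table and 10 were tested. It was drawn up from general knowledge and not checked against the studies behind it. All 10 were called higher, where 69.0% of the 42 tested members and 13.5% of all tested genes were. Their median log2 fold change was 6.05, or 5.70 with clec-17 at its lower bound. For the 42 tested members, which include these 10, the medians were 5.83 and, with such bounds, 4.70. The 10 are clec-17, clec-41, clec-42, clec-49, clec-63, clec-65, clec-66, clec-82, clec-85 and clec-186. Of the 10, clec-17, clec-41, clec-49, clec-66 and clec-85 passed the filter by their intestinal libraries alone. The list was also chosen with earlier results of these data known, so the count is a description.

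The genes clec-41 and clec-42, which encode long family members of 545 and 555 residues and are known to take part in defence against Bacillus thuringiensis, were both called higher. For clec-42 (F16H6.1, chromosome V, 18191412 to 18194168) there were 823, 567 and 3 counts against 1, 20 and 0. The groups did not overlap, but intestinal replicate 3 stood at only 3 counts. The log2 fold change was 6.14 ± 1.37 (SE, adjusted p by edgeR = 0.010), and without intestinal replicate 1 the edgeR adjusted p was 0.058. For clec-41 (B0365.6, chromosome V, 13134903 to 13138101) there were 55, 153 and 5 counts against 0, 5 and 1. The log2 difference was 4.77 ± 1.49 (SE, adjusted p by edgeR = 0.043). The replicate block ended this call (adjusted p by edgeR = 0.052), as did 5 of 6 fits with a library left out. The edgeR adjusted p was 0.055 without intestinal replicate 3, 0.099 and 0.12 without intestinal replicates 1 and 2, and 0.12 and 0.11 without non-intestinal replicates 1 and 2. The gene next to it, clec-225 (B0365.5), which is 155 residues long, had 172, 247 and 8 counts against 0, 0 and 3. Its libraries did not overlap either, yet it was not called (log2 fold change 5.28 ± 1.83 SE, edgeR adjusted p = 0.064). The replicate block called it (edgeR adjusted p = 0.041), as did the fit without non-intestinal replicate 3 (edgeR adjusted p = 0.0033). The gene clec-4, also on the infection list, had 173, 330 and 0 counts against 0, 0 and 0, and did not pass the filter.

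The gene clec-49 (W04E12.6), known for a role in survival on Serratia marcescens, lies beside clec-50 (W04E12.8) on chromosome V, in a stretch from 19748961 to 19755368. Both have 4 coding exons and 321 residues, as has clec-48 (C14A6.1) elsewhere on the same chromosome at 18158026 to 18159614. All 3 were called higher. For clec-50 there were 8084, 10091 and 541 counts against 12, 256 and 7. Its level was 562 ± 120 against 5.78 ± 5.15 CPM (SD, n = 3 each), a log2 difference of 6.54 ± 0.78 (SE), with adjusted p = 0.00060 by edgeR. Every intestinal library was far above every non-intestinal one. For clec-49 there were 844, 610 and 25 counts against 1, 17 and 0, a log2 difference of 6.57 ± 1.10 (SE), with adjusted p = 0.0024 by edgeR. For clec-48 there were 2280, 2139 and 112 counts against 2, 44 and 0, a log2 difference of 7.05 ± 1.01 (SE), with adjusted p = 0.0012 by edgeR. Equal length does not show that their 3′ ends are alike, and sequence identity was not computed. Whether the counting divided reads among them is not known, so their separate values are uncertain to that extent. The gene clec-39, also known from Serratia infection, had 5 counts in intestinal replicate 3 and 0 in the other 5 libraries.

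Many of the higher genes lay near other clec genes, though not always next to another higher one. With clec genes joined into a run when less than 10000 bases apart, 71 of the 124 members lay in 29 runs of 2 or more annotated clec genes. Of the 29 higher genes, 22 lay in such runs, and 17 of them lay in the 6 runs that held 2 or more higher genes.

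The run with the most clec reads lies on chromosome IV from 2823746 to 2855456. It holds clec-80, clec-82, clec-83, clec-84 and clec-85, of which clec-80 was not analysed here. The 4 measured genes were each called higher. The gene clec-83 (Y54G2A.14, 2839371 to 2841472), of 237 residues, had 26260, 23316 and 746 counts against 92, 481 and 15. Its level was 1374 ± 793 CPM against 14.9 ± 6.85 CPM (SD, n = 3 each), and its log2 difference was 6.5 ± 0.68 (SE, adjusted p by edgeR = 0.00034, the lowest of the 42 members). The intestinal libraries were all higher, and among them replicate 3 was the lowest. Exons of clec-83 and clec-82 overlap those of Y54G2A.7, which was not analysed here, and exons of clec-85 those of Y54G2A.40, which had at most 17 counts in a library. The neighbouring gene clec-82 (Y54G2A.8), on the infection list, had 554, 337 and 36 counts against 0, 23 and 0, a log2 difference of 5.97 ± 1.26 (SE), with adjusted p = 0.0080 by edgeR. The short gene clec-84 (Y54G2A.33), of 172 residues, had 294, 179 and 13 counts against 0, 1 and 0, and was at least 20.1-fold higher (edgeR adjusted p = 0.0024). This and all other lower bounds set the intestinal mean against 3 counts in each non-intestinal library. They cover counts of 0. Where counts were seen in a non-intestinal library, they leave out the counting error of those. The gene clec-85 (Y54G2A.6), a known target of the p38 immune kinase pathway, had 102, 636 and 12 counts against 1, 17 and 0. The log2 difference was 5.43 ± 1.25 (SE, adjusted p by edgeR = 0.012), and the edgeR adjusted p was 0.068 without intestinal replicate 2, its highest library.

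The run on chromosome II from 12893062 to 12906644 holds clec-62, clec-63, clec-64, clec-65 and clec-66 within 13.6 kb. Of these, clec-62, clec-63, clec-65 and clec-66 were called higher, and clec-64 did not pass the filter. The gene clec-63 (F35C5.6) had 3130, 8826 and 60 counts against 12, 385 and 4. Its intestinal level varied widely, at 272 ± 230 CPM against 7.19 ± 8.92 CPM (SD, n = 3 each), with replicate 3 lowest, and the log2 difference was 5.17 ± 1.11 (SE, adjusted p by edgeR = 0.0088). For clec-65 (F35C5.8) there were 949, 1404 and 8 counts against 0, 36 and 0, a log2 difference of 6.22 ± 1.42 (SE), with adjusted p = 0.011 by edgeR. For clec-66 (F35C5.9) there were 194, 434 and 31 counts against 0, 6 and 0, a log2 difference of 7.07 ± 1.23 (SE), with adjusted p = 0.0031 by edgeR. Unlike clec-63 and clec-65, clec-66 was as high in intestinal replicate 3 as in replicate 2, at 24.8 and 25 CPM. For clec-62 (F35C5.5) there were 94, 267 and 9 counts against 0, 7 and 0, a log2 difference of 5.85 ± 1.43 (SE), with adjusted p = 0.015 by edgeR. The gene clec-64 had 162, 30 and 0 counts against 0, 5 and 0.

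The longest run with higher genes lies on chromosome IV from 3922165 to 3975721 and holds 11 annotated genes, of which 9 were members. Here the tested genes were clec-72, clec-75 and clec-76, and each was called higher. For clec-75 (Y46C8AL.9) there were 371, 298 and 58 counts against 0, 26 and 0, a log2 difference of 5.82 ± 1.28 (SE), with adjusted p = 0.0096 by edgeR. For clec-76 (Y46C8AR.1) there were 317, 357 and 18 counts against 3, 0 and 0 (edgeR adjusted p = 0.0079). Its intestinal mean was 27.3-fold the level of 3 counts in each non-intestinal library. The gene clec-72 (Y46C8AL.5) had 241, 278 and 1 counts against 0, 3 and 2 (edgeR adjusted p = 0.038). Its intestinal mean was 16.4-fold the level of 3 counts in each non-intestinal library. Its intestinal replicate 3 lay within the non-intestinal range. Its call was lost under the replicate block (adjusted p by edgeR = 0.071) and without non-intestinal replicate 1 or 2 (edgeR adjusted p = 0.081 and 0.11), and without intestinal replicate 1 or 2 it did not pass the filter. The other 6 members of this run did not pass the filter. Of these, clec-67, on the infection list, had 99, 415 and 0 counts against 0, 3 and 0. The gene clec-74 had 13, 68 and 0 counts against 0, 0 and 0, and clec-71 had 12, 13 and 0 against 0, 0 and 0. The gene clec-174 differed from its neighbours, with 4, 2 and 0 counts against 0, 0 and 14.

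**Figure D4:**
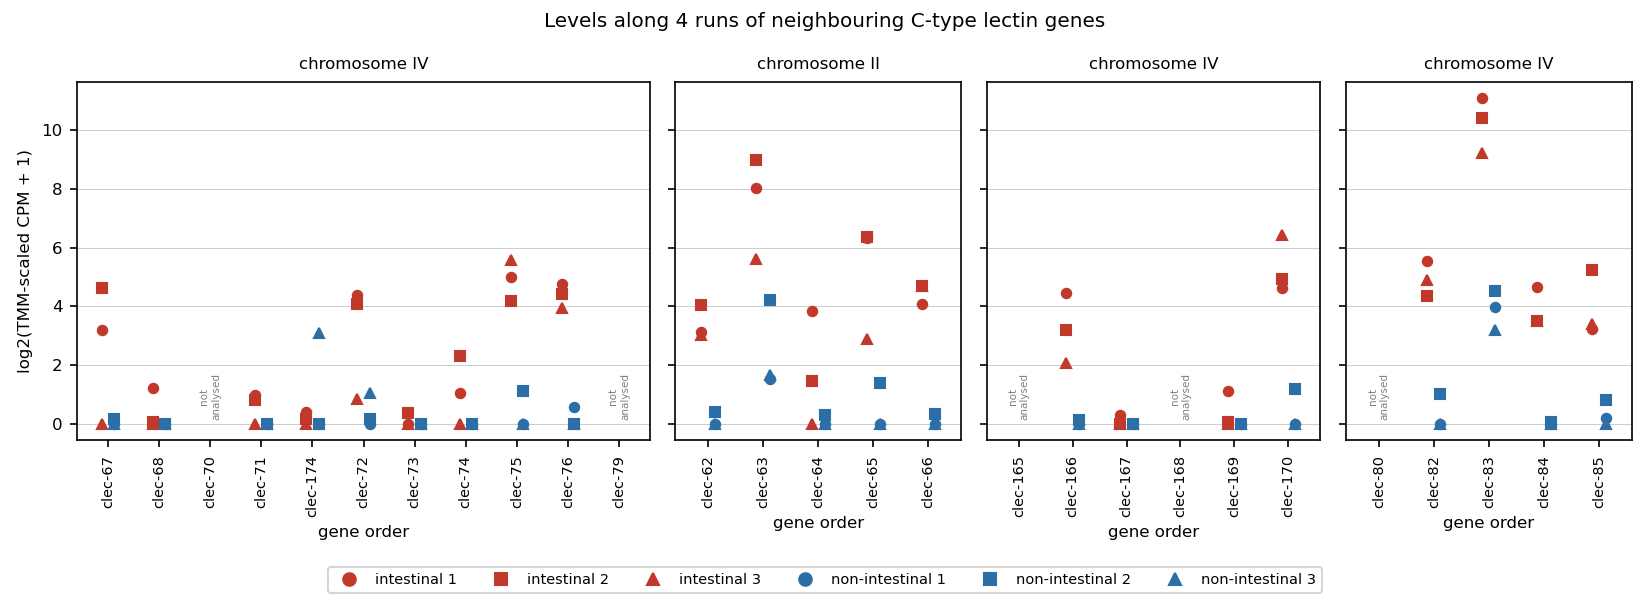
Levels as log2 of CPM plus 1 along 4 runs of neighbouring C-type lectin genes, in chromosomal order, with red for intestinal and blue for non-intestinal libraries and 1 marker shape per replicate. Genes near 0 such as clec-68 and clec-73 share a run with clec-75 and clec-76, and clec-167 shares one with clec-166 and clec-170. The high genes clec-83 and clec-63 lie in other runs, and genes that were not analysed are marked.

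A run on chromosome IV from 1245171 to 1274425 holds 6 genes, of which clec-166 and clec-170 were called higher at its 2 sides. For clec-170 (F38A1.1) there were 282, 508 and 105 counts against 0, 28 and 0, a log2 difference of 6.23 ± 1.29 (SE), with adjusted p = 0.0073 by edgeR. This gene was highest in intestinal replicate 3, at 84.1 CPM against 23.4 and 29.3 CPM in replicates 1 and 2. For clec-166 (F38A1.5) there were 250, 143 and 4 counts against 0, 2 and 0, at least 14.3-fold higher (edgeR adjusted p = 0.0080). Between them, clec-167 and clec-169 had at most 3 and 14 counts in a library.

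The pair clec-186 (ZK896.7) and clec-187 (ZK896.6) lies within 5.39 kb on chromosome IV, at 12866109 to 12871495. For clec-187 there were 1823, 1248 and 76 counts against 18, 87 and 2, a log2 difference of 5.08 ± 0.79 (SE), with adjusted p = 0.0017 by edgeR. For clec-186, on the infection list, there were 940, 523 and 18 counts against 0, 6 and 9. The groups did not overlap in either gene. The log2 fold change of clec-186 was 4.99 ± 1.49 (SE, adjusted p by edgeR = 0.037), and its edgeR adjusted p was 0.15 without intestinal replicate 1 and 0.088 without non-intestinal replicate 2.

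A second pair of alike genes, clec-51 (B0218.6) and clec-52 (B0218.8), lies at 8161953 to 8168760 on chromosome IV. Both have 7 coding exons and 308 residues. Their sequence identity was not computed, so whether reads were divided between them is not known. For clec-52 there were 194, 550 and 22 counts against 0, 9 and 1, a log2 difference of 6.17 ± 1.21 (SE), with adjusted p = 0.0056 by edgeR. For clec-51 there were 75, 204 and 4 counts against 2, 0 and 3. Its groups did not overlap in CPM, and its log2 fold change was 3.90 ± 1.67 (SE). Yet it was not called (edgeR adjusted p = 0.13, and 0.037 without non-intestinal replicate 3). Its exons overlap those of faah-1 on the opposite strand, which had 7026, 8350 and 788 counts against 118, 1740 and 49.

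On chromosome V clec-56 (F08H9.7) was the tested gene of a run of 5. It had 48, 416 and 4 counts against 0, 15 and 1, and its log2 difference of 4.63 ± 1.49 (SE, adjusted p by edgeR = 0.048) rested most on intestinal replicate 2. The call was lost in 5 of 6 fits with a library left out. The edgeR adjusted p was 0.079 and 0.23 without intestinal replicates 1 and 2, and 0.097, 0.075 and 0.057 without non-intestinal replicates 1, 2 and 3. Its neighbour clec-57 had 53, 173 and 0 counts against 0, 1 and 0, and clec-54 had 15, 62 and 0 against 0, 0 and 0.

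Other higher genes stood alone, farther than 10000 bases from any further clec gene, or beside one with no row among the members. The gene clec-150 (R06B10.3, chromosome III, 1002707 to 1006298) had 1917, 3129 and 260 counts against 1, 87 and 1. Its level was similar in the intestinal libraries, at 183 ± 24.6 CPM against 1.55 ± 2.09 CPM (SD, n = 3 each), and its log2 difference was 6.65 ± 1.03 (SE, adjusted p by edgeR = 0.0017). The gene clec-265 (M02F4.7), on chromosome X, had 520, 1061 and 8 counts against 0, 23 and 0, a log2 difference of 6.21 ± 1.37 (SE), with adjusted p = 0.010 by edgeR. Both genes separated the groups in every library.

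Among the higher genes whose non-intestinal libraries were at the limit of detection, clec-5, clec-17 and clec-181, which is described below, had no count there. The gene clec-5 (C35D10.14, chromosome III) had 144, 327 and 30 intestinal counts and was at least 24.4-fold higher (edgeR adjusted p = 0.0028). The gene clec-17 (E03H4.10, chromosome I), on the infection list, had 288, 370 and 6 intestinal counts and was at least 22.3-fold higher (edgeR adjusted p = 0.0046). The fitted log2 fold changes of clec-5, clec-17 and clec-181, at 10.53, 10.42 and 7.48, depend on how a count of 0 is treated. Those of clec-5 and clec-17 do not rank them first.

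The gene clec-210 (Y73C8C.2, chromosome V) had 477, 213 and 22 counts against 0, 3 and 0 (edgeR adjusted p = 0.0022). Its intestinal mean was 31-fold the level of 3 counts in each non-intestinal library. Its exons overlap srt-56 on the opposite strand, which was not analysed here. For clec-206 (F59A7.1, chromosome V) there were 123, 260 and 4 counts against 0, 0 and 1, at least 12.7-fold higher (edgeR adjusted p = 0.022). Its edgeR adjusted p was 0.068 and 0.061 without intestinal replicates 1 and 2, and 0.063 and 0.066 without non-intestinal replicates 1 and 2. The weakest of these genes was clec-181 (Y59H11AR.5, chromosome IV), with 32, 38 and 2 counts against 0, 0 and 0. It was at least 2.87-fold higher (edgeR adjusted p = 0.025). Its call was lost under the replicate block (adjusted p by edgeR = 0.056), without intestinal replicate 3 (edgeR adjusted p = 0.056) and without non-intestinal replicate 1 (edgeR adjusted p = 0.082). Without intestinal replicate 1 or 2 or non-intestinal replicate 2 it did not pass the filter.

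The small amounts of these genes in non-intestinal libraries were unevenly spread. Of the 29 higher genes, 10, 24 and 11 had a count in non-intestinal replicates 1, 2 and 3, and 20 were highest in replicate 2. These libraries held 4912430, 19968366 and 1576441 worm gene counts, so replicate 2 was also the deepest. The part of depth in this spread was not tested. Their summed level there was 0.722%, 2.29% and 0.758% of the intestinal mean. For the 14 intestinal markers the summed level was 0.757%, 2.66% and 2.42% of the intestinal mean in the same libraries. Replicate 2 was the highest for both lists. Whether intestinal RNA or cells in these libraries account for the counts was not tested.

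A few members were higher in non-intestinal cells or had negative fold changes. The gene clec-87 (C25A1.8, chromosome I, 10184462 to 10185520) was the member called lower in intestinal cells. It had 0, 19 and 0 intestinal counts against 36, 690 and 34. Its level was 0.365 ± 0.632 against 18.5 ± 12.8 CPM (SD, n = 3 each), and the groups did not overlap. The log2 fold change was −5.24 ± 1.46 (SE, adjusted p by edgeR = 0.028, and 0.0073 under the replicate block). The call was lost without intestinal replicate 1 (edgeR adjusted p = 0.073), without intestinal replicate 3 (edgeR adjusted p = 0.051) and without non-intestinal replicate 2 (edgeR adjusted p = 0.12). An exon of clec-87 overlaps iars-2 on the opposite strand, and iars-2 itself was at 130, 180 and 14 counts against 56, 130 and 25 (edgeR adjusted p = 0.88). Strand use in the counting is not given in the sources used here, so reads of overlapping genes cannot be told apart.

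The gene clec-88 (K10B2.3, chromosome II, 6365722 to 6367002) had 0, 21 and 1 counts against 159, 548 and 1. Non-intestinal replicates 1 and 2 were high, at 25.3 and 24.9 CPM, and replicate 3 fell within the intestinal range. It was not called (log2 fold change −4.69 ± 1.61 SE, edgeR adjusted p = 0.062), but was called without non-intestinal replicate 3 (edgeR adjusted p = 0.020). Its exons overlap those of ctsa-4.1 on the same strand, a gene with 724, 914 and 21 counts against 1, 16 and 0. For clec-1 (F25B4.9, chromosome V, 5700154 to 5701080) there were 64, 179 and 0 counts against 228, 704 and 80. Each non-intestinal library was higher, with levels of 5.21 ± 5.16 against 37.3 ± 5.81 CPM (SD, n = 3 each), and only clec-1 and clec-87 among the 42 had this order, or 4.76%, where 23.5% of all tested genes had it. The gene clec-1 was not called (log2 fold change −2.73 ± 1.00 SE, edgeR adjusted p = 0.076). Scaling by library totals called both clec-1 and clec-88 lower (edgeR adjusted p = 0.033 and 0.043), and DESeq2 did too (DESeq2 adjusted p = 0.0050 and 0.0075). The germline marker list was lower in intestinal cells as well, with 8 of 9 tested genes called lower, or 88.9%, where 7.64% of all tested genes were. Of the 8, 2 passed the filter by non-intestinal libraries alone. Its part in these 3 genes was not tested.

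A further 6 tested members overlapped between the groups and were not called. For clec-90 (F57C9.2, chromosome I) there were 88, 299 and 34 counts against 94, 202 and 45, and glo-2, which it overlaps on the same strand, was not analysed here. Its levels of 17.3 ± 9.97 and 16.2 ± 7.72 CPM (SD, n = 3 each) overlapped, a log2 difference of 0.08 ± 0.80 (SE), with adjusted p = 0.95 by edgeR. Its sign turned under library totals alone (−0.31), at equal depth (−0.051) and without intestinal replicate 3 (−0.35). For clec-149 (K02F3.5, chromosome III) there were 64, 74 and 4 counts against 107, 85 and 12, a log2 difference of −1.08 ± 0.98 (SE), with adjusted p = 0.46 by edgeR. For clec-146 (Y48E1B.9) the counts were 35, 0 and 0 against 59, 102 and 3 (edgeR adjusted p = 0.36). For clec-196 (F26D10.12) they were 4, 71 and 0 against 41, 74 and 0 (edgeR adjusted p = 0.66), and for clec-91 (ZK858.3) 8, 21 and 0 against 9, 99 and 0 (edgeR adjusted p = 0.49). The exons of clec-91 overlap those of ZK858.8 on the opposite strand, which had at most 45 counts in a library. The gene clec-233 (F21H7.4) had 4, 43 and 5 counts against 0, 37 and 0 (edgeR adjusted p = 0.50).

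Alongside clec-225 and clec-51, 2 further genes had high intestinal levels without a call. For clec-160 (F09G8.8), at 639 residues the longest tested member, there were 276, 140 and 6 counts against 0, 0 and 5, with no overlap in CPM (log2 fold change 4.30 ± 1.86 SE, edgeR adjusted p = 0.13). It was called without non-intestinal replicate 3 (edgeR adjusted p = 0.0043), where its 5 counts lay. For clec-218 (W02D7.2) there were 126, 210 and 0 counts against 1, 0 and 2 (log2 fold change 4.89 ± 1.98 SE, edgeR adjusted p = 0.11). It was called without intestinal replicate 3 (edgeR adjusted p = 0.048) and without non-intestinal replicate 3 (edgeR adjusted p = 0.036). DESeq2 called clec-160, clec-218, clec-225 and clec-51 higher.

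Most members, 82 of 124, did not pass the filter and so carry no test, though 62 of them exceeded 3 counts in some library. Of these 62, 40 exceeded 3 counts in intestinal libraries only, 9 in non-intestinal libraries only and 13 in both. Here too the share over all gene rows was not computed. The summed level of the 82 was 128, 125 and 32.1 CPM against 27.9, 6.18 and 26.1 CPM. The ones with the highest intestinal counts had 0 or 1 counts in the shallow intestinal replicate 3. Besides clec-4, clec-67, clec-57 and clec-64, these include clec-10 with 117, 164 and 0 counts against 4, 1 and 1. The genes clec-43, clec-45 and clec-143 had 78 counts each in intestinal replicate 1, then 88, 65 and 58 in replicate 2, and 0 in the other 4 libraries. For clec-258 there were 112, 149 and 1 counts against 0, 0 and 0, and for clec-173 168, 43 and 1 against 0, 0 and 1. With no filter, 9 of these 62 genes were called higher and 0 lower: clec-4, clec-43, clec-45, clec-57, clec-64, clec-67, clec-143, clec-173 and clec-258 (edgeR adjusted p from 8.5e-05 to 0.049). Over all genes, the fit with no filter called 1438 higher and 951 lower, and their share was not computed. The count of 9 among 62 is therefore not shown to be particular to the family. Without intestinal replicate 3, 25 of the 62 passed the filter and 12 were called higher. Over all genes that fit called 1358 higher. All 12 had 0 or 1 counts in the library left out, so these calls follow in part from that choice. An exon of clec-143 overlaps the muscle gene tnc-2 on the opposite strand, which had 322, 663 and 3 counts against 181, 2415 and 271.

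Some untested members had most of their counts in non-intestinal cells. The gene clec-199 had 3, 7 and 0 counts against 75, 0 and 0, so its signal came from 1 library. For clec-180 there were 0, 0 and 0 counts against 25, 0 and 3, and for clec-266 0, 5 and 0 against 12, 21 and 0. For clec-198 there were 0, 12 and 0 against 10, 21 and 0. The genes clec-198, clec-199 and clec-202 lie in 1 run on chromosome IV, from 17345553 to 17364583, in which no gene was tested.

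**Figure D5:**
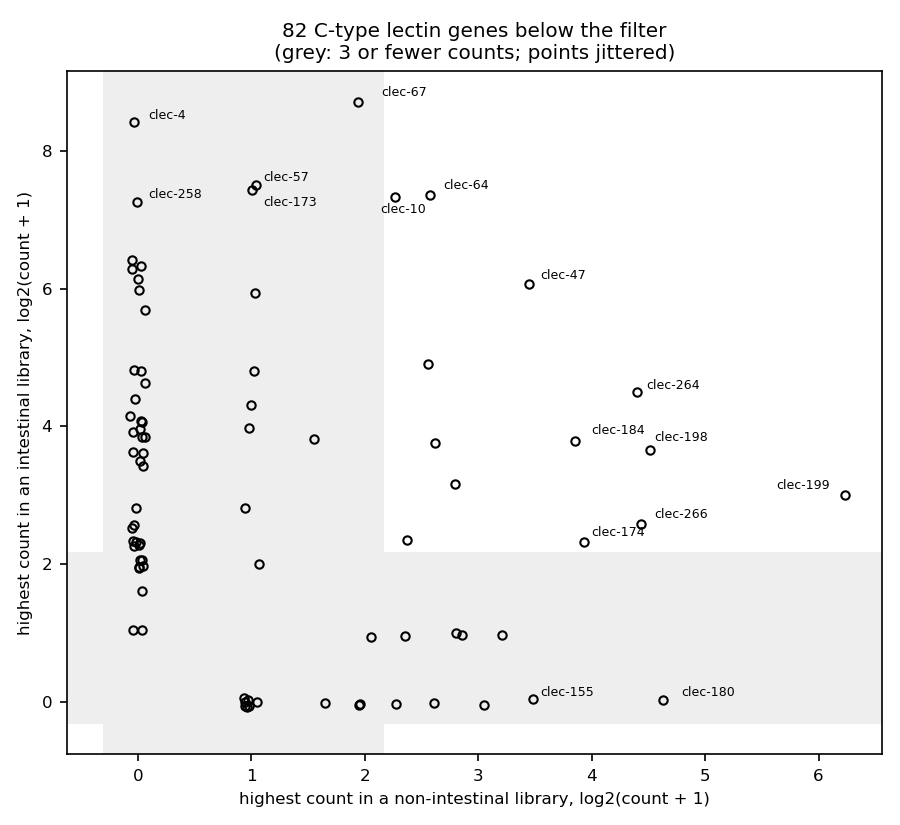
The highest count in an intestinal library against the highest count in a non-intestinal library, as log2 of count plus 1, for the 82 C-type lectin genes below the filter, with points jittered and the zones of 3 or fewer counts in grey. Of the 62 genes outside the lower left zone, 40 lie in the upper left part, 9 at the lower right and 13 in the white area.

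The 20 genes at 3 or fewer counts in every library were clec-12, clec-58, clec-95, clec-118, clec-121, clec-127, clec-141, clec-142, clec-154, clec-159, clec-167, clec-175, clec-182, clec-197, clec-224, clec-226, clec-229, clec-245, clec-246 and clec-260. Of these, clec-154 and clec-159 are annotated as pseudogenes, as are clec-155 and clec-188 among the others. The genes clec-245 and clec-246 lie next to clec-42, which was called higher. At these depths a level below the limit of detection does not show that a gene was off.

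Intestinal replicates differed in how much clec RNA they held. The family summed to 4495, 3594 and 1876 CPM, while intestinal markers summed to 8554, 7412 and 7844 CPM. Replicate 3 was thus at 56.5% of the intestinal mean for clec genes and at 98.8% for the markers. Of the 29 higher genes, 19 were lowest in replicate 3, 6 in replicate 1 and 4 in replicate 2. Of 51 members for which the mean level of replicates 1 and 2 predicted over 3 counts in replicate 3, 14 had 0 counts there, or 27.5%, whereas it was 1162 of 7918 gene rows, or 14.7%. The largest gaps were in clec-4 and clec-67, with 20.8 and 20.1 counts predicted. Over the higher genes the median ratio of replicate 3 to that mean was 0.574, and over all tested genes 0.503. Of the 29 higher genes, 28 passed the filter limit in all 3 intestinal libraries, and members such as clec-4 and clec-67 did not enter. The ratio of 0.574 is thus raised by this selection and cannot be set against 0.503. The part of depth in these values was not tested.

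By position, 13 of 15 tested members were called higher on chromosome IV, 8 of 12 on V, 4 of 6 on II, 2 of 4 on III, 1 of 4 on I and 1 of 1 on X. Chromosomes IV and V also held most members, 38 each. The shares over all tested genes of each chromosome were not computed. The split by chromosome is therefore not shown to be particular to the family. The higher genes encode from 172 to 555 residues with a median of 386, and the other 13 tested genes from 153 to 639 with a median of 233. The median was 357.5 over all 124 members, with pseudogenes entered at 0. It was 378.5 over the 62 untested members that exceeded 3 counts. The nearest genes outside the family gave little to compare, since of 42 such neighbours of the higher genes 5 were tested. Among these 5, alh-5, beside clec-206, was called higher, or 20% of them.

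Other genes linked to defence in the intestine were taken from 4 lists. In the p38 pathway and among immune regulators 2 of 14 tested genes, or 14.3%, were called higher and 0 lower, with a median log2 fold change of 0.96. This is near the 13.5% called higher among all tested genes. These were the GATA factor elt-2 itself, at 5.81 ± 1.10 (SE, adjusted p by edgeR = 0.0046), and the hormone receptor gene fshr-1, at 6.52 ± 1.02 (SE, adjusted p by edgeR = 0.0018). Of these, elt-2 is also on the list of intestinal markers. The kinase genes of the pathway were not called: the log2 difference was −0.098 for nsy-1, 1.57 for sek-1 and 1.12 for pmk-1, with edgeR adjusted p of 0.94, 0.30 and 0.33. The adaptor gene tir-1 was at 1.37 (edgeR adjusted p = 0.11). The replicate block called 4 of the 14 higher, adding the phosphatase gene vhp-1 and the transcription factor gene atf-7 (edgeR adjusted p = 0.035 and 0.040).

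The galectins, a lectin family that binds galactose-containing sugars and is unrelated in fold to the C-type lectins, had 12 tested genes. Of these lec-6, lec-9, lec-10 and lec-11, or 33.3%, were called higher and lec-4, or 8.33%, lower, against 13.5% and 7.64% of all tested genes. The median log2 fold change was 0.60. The log2 fold change was 5.46 for lec-9 and −2.35 for lec-4 (edgeR adjusted p = 0.0011 and 0.036), and the call of lec-4 held in 1 of the 6 fits that left out 1 library. Saposin-like genes, which encode small proteins that act on membranes and in part kill bacteria, had 10 of 12 tested genes, or 83.3%, called higher and 0 lower, against 13.5% and 7.64% of all tested genes. Of the 10, spp-2 and spp-16 passed the filter by intestinal libraries alone. Their median log2 fold change was 6.11, or 5.90 with spp-16 at its lower bound. The level of spp-5 was 4178 ± 385 against 49.5 ± 31.8 CPM (SD, n = 3 each), and that of spp-10, which was not called, 24.1 ± 21.2 against 47.1 ± 20.9 CPM. Of the CUB-like and other infection-response genes 8 of 9 tested, or 88.9%, were called higher and 0 lower, with a median of 6.38, against the same shares of all tested genes. Of the 9, dod-20 and dod-22 passed the filter by intestinal libraries alone. The gene irg-4 reached 1509 ± 462 CPM against 10.5 ± 8.24 CPM (SD, n = 3 each), a log2 difference of 7.14 ± 0.76 (SE), with adjusted p = 0.00037 by edgeR.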

How the data were processed

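Messenger RNA of pooled cells was measured in 6 libraries, 3 intestinal and 3 non-intestinal. The authors deposited 1 table of raw counts per gene and library, with no normalization. The submitters' processing notes name STARsolo 2.7.10a and the builds WBcel235 and ce11. The annotation, strand use and handling of molecular identifiers and of reads shared by gene copies are not given in the sources used here, so counts may include amplification copies, and limits of detection cover counting error only. Of 15472 rows, 825 with RIT names, 41 spike-ins and 1 reporter were left out of totals and tests. Together the RIT rows took at most 0.782% and the spike-ins at most 0.0142% of a library. Symbols came from RefSeq WBcel235 (14387 of 14605 gene rows matched). Positions, exons, residues and overlaps came from Ensembl annotation release 115 of WBcel235.

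Counts were tested with edgeR 4.0.16 in R 4.3.3 (quasi-likelihood F test, TMM, robust estimation, filterByExpr at its default limits of 10 counts in a library and 15 in total), with group as the only term, over 9203 genes. Standard errors were derived from the log2 fold change and its F statistic. The alternatives were DESeq2 1.42.0, RLE size factors, library totals alone, no filter, at least 10 counts in 3 libraries, equal depth, no robust estimation, a replicate block and leaving out each library. As a check of pairing, each library's departure from its group in log2 CPM was compared across groups. Correlations were 0.278, 0.157 and 0.279 for equal replicate numbers and from −0.256 to 0.0695 for unequal ones. The replicate block took its pairs from these numbers. In both groups replicate 2 was the deepest library and replicate 3 the shallowest, so shared depth and shared origin cannot be told apart here. No libraries of 1 group agreed within counting noise (ratio of chi-square to degrees of freedom between 33.3 and 178). The members and lists were chosen with earlier results of these data known. Named with values in every library were all called members, uncalled tested members and members of the infection list past the filter, then untested members over 3 counts. Within the untested members, those shown were picked after their values were seen. Listed genes with no row, such as clec-60 and clec-70, were not analysed here.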

Additional observations from a re-analysis of the deposited data

How the results depend on the processing

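The number of clec genes called higher (29) ranged from 22 to 41 over the 6 fits that left out 1 library, and was 17 at equal depth, where the other 12 did not pass the filter. It was 33 by DESeq2, 39 without a filter (which lost clec-41 and clec-181), 22 under the filter of 10 counts and 27 under the replicate block, which kept 26 of the 29 and, apart from the calls named in the Results, changed no other member's call. The number called lower (1) was 3 by DESeq2, with library totals as the only scaling and with no filter, and from 0 to 2 when 1 library was left out. Members at 3 or fewer counts everywhere (20) numbered 0 at a limit of 0 counts, 41 at a limit of 10 counts, 61 at equal depth and from 22 to 33 with 1 library left out. The summed clec level was 1947 CPM in intestinal libraries without clec-83, and 202 CPM in non-intestinal libraries under library totals alone. Leaving out 1 library gave from 2735 to 4044 CPM and from 160 to 181 CPM. Over all genes the number called higher (1246) was 1064 at equal depth, 1438 without a filter and 1118 under the filter of 10 counts. Their shares of the genes tested in those fits were not computed. The number called lower over all genes (703) was 1379 by DESeq2 and 1337 under library totals alone. With 1 library left out it ranged from 198 to 647, and the number called higher (1246) from 788 to 1393. The sign turned for clec-90 alone among the 42 tested members, to −0.051 at equal depth, −0.31 under library totals alone and −0.35 without intestinal replicate 3, and it ranged from −0.35 to 0.84 with 1 library left out. RLE size factors and no robust estimation changed no member's call. Apart from equal depth, the cause of these changes was not tested. Depth limits the comparison most in replicate 3 of both groups, where 3 counts are 2.40 and 1.63 CPM.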
